A study of Mus musculus with 10 samples.

Results

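The genes described here are 9 receptors through which blood progenitors sense cytokines: Flt3, Kit, Il7r, Il2rg, Crlf2, Csf2ra, Csf2rb, Il3ra and Epor. Their members were taken by name, as every non-control probe whose transcript accession belongs to one of these genes. This gave 14 of the 56605 probes on the array. Of these, 12 probes were bright enough to be kept, and they covered 8 of the 9 receptors among the 22012 genes tested. Epor was on the array with 2 probes, neither of which was kept.

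RNA came from mouse bone marrow colonies labelled BCR-ABL+, BCR-ABL being the fused kinase found in Philadelphia chromosome-positive leukaemias. Marrow of donors aged 6 weeks was exposed to retrovirus and then cultured for 10 days in methylcellulose to which no growth factor had been added. There were 4 samples of genotype Cdk6-K43M, a CDK6 protein whose kinase activity is lost, and 4 of genotype Cdk6-/-, which lack CDK6. Each was compared on a 2-colour array with the same pool of 4 wild-type (Cdk6+/+) RNAs, and 1 further array per genotype carried the pool of its 4 RNAs with the dyes swapped. The labels say that individual colonies were picked and the design text calls the 4 samples of a genotype biological replicates, but the number of colonies or mice behind a sample is not given. All values below are log2 ratios of mutant over wild-type pool, with the sign of the swapped arrays reversed, unless a level is named.

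Cytokine receptors signal once a ligand brings their chains together. Flt3 and Kit are receptor tyrosine kinases that carry their own kinase domain. The others lack one and signal through bound JAK kinases, which phosphorylate STAT transcription factors. They share chains: the IL-7 receptor is Il7r with the common gamma chain Il2rg, the TSLP receptor is Il7r with Crlf2, and the receptors for IL-3 and GM-CSF pair their own alpha chain, Il3ra or Csf2ra, with the common beta chain Csf2rb. B-cell progenitors depend on IL-7 and respond to FLT3 ligand, myeloid and mast cells use KIT ligand, IL-3 and GM-CSF, and Epor serves red cell precursors. BCR-ABL activates STAT5 without any of these ligands. CDK6 drives the G1 phase with D-type cyclins and also acts on transcription, and in human acute myeloid leukaemia cells it has been described at the FLT3 promoter.

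The promoters of the 4 receptors below that passed the test against the pool and have an entry in the RefSeq table (build GRCm38.p6), and that of Epor, which was not detected, are shown as the 250 bases before the transcript start, 5′ to 3′ on the strand of the gene. Capitals mark AGGAAG, the core of an ETS type motif as bound by PU.1 and its relatives, on either strand (CTTCCT on the other), and in Epor also AGATAA, the motif that GATA factors bind (TTATCT on the other strand). They lie at chr5:147400490-147400739 on the minus strand for Flt3, chr15:9529877-9530126 on the minus strand for Il7r, chr5:109558994-109559243 on the minus strand for Crlf2, chr14:14346245-14346494 on the plus strand for Il3ra and chr9:21963577-21963826 on the minus strand for Epor.
Flt3: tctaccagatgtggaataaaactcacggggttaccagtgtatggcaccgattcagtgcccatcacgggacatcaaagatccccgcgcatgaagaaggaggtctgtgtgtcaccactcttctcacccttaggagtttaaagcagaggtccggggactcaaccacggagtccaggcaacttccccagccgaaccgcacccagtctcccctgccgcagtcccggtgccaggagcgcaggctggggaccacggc
Il7r: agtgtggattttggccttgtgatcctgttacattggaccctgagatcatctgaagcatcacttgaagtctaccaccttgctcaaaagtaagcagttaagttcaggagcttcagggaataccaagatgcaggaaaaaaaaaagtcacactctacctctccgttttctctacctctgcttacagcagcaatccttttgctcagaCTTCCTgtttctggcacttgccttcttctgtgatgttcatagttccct
Crlf2: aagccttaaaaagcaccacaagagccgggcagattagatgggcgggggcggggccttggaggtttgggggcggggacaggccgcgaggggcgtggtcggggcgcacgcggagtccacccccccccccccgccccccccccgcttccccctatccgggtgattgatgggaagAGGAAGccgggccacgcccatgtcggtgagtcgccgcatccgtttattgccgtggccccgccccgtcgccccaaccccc
Il3ra: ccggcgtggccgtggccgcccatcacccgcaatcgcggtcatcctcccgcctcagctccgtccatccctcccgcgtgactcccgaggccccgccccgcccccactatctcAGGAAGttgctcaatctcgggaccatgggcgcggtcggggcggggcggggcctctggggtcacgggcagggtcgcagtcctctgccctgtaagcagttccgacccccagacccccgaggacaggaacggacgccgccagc
Epor: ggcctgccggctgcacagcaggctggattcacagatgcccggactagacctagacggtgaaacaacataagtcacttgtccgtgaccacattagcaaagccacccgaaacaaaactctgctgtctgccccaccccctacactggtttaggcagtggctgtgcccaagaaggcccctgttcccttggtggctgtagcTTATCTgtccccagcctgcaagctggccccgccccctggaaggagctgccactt
AGGAAG was found in 6 of the 8 receptor promoters with an entry, and in 29.2% of the promoters of all 27025 genes in the table cut to the same length. The matches begin 48 bases before the start in Il7r, 79 in Crlf2 and 140 in Il3ra, and the window of Flt3 holds none. AGATAA was found in Epor alone among the 8, 54 bases before its start, and in 10.3% of all promoters. TTCNNNGAA, a STAT type motif, was found in Il7r alone among the 8 and in 7.18% of all promoters, and TGANTCA, an AP-1 type motif, in none of the 8 and in 6.87% of all. Both strands were searched and none of these matches overlap another in the printed windows. They describe letters only and say nothing of a factor's presence there.

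In Cdk6-K43M colonies 3 of the 8 receptors tested differed from the wild-type pool: Csf2rb and Crlf2 fell and Il7r rose. In Cdk6-/- colonies 2 of 8 differed: Flt3 fell and Il3ra rose. No receptor differed between the genotypes after adjustment. The test was limma's moderated test with Benjamini-Hochberg adjustment over all genes at 0.05. By it 20.1% of all genes were called in Cdk6-K43M (9.79% higher, 10.3% lower), 7.24% in Cdk6-/- (3.38% higher, 3.85% lower) and 0.513% between the genotypes (0.263% higher, 0.25% lower). The 3 of 8 and 2 of 8 receptors stand against these shares, and the list as a whole was not tested. The median receptor stood at -0.33 in Cdk6-K43M, where the median gene stood at -0.01. In Cdk6-/- the median receptor stood at -0.10 and the median gene at 0.00. These p-values measure the spread between these samples, with the wild-type pool taken as 1 control without spread of its own. When standard errors were widened for that spread, Csf2rb in Cdk6-K43M was the 1 receptor still called.

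**Figure D1:**
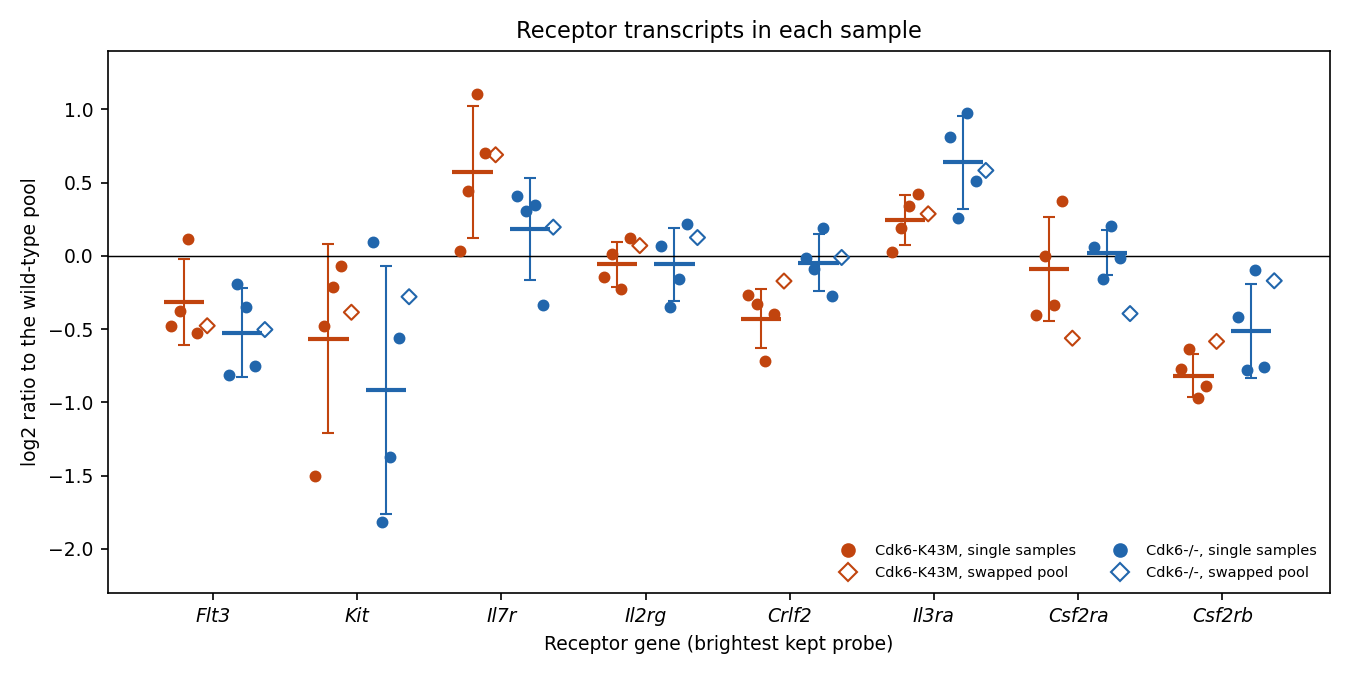
Log2 ratio to the wild-type pool (vertical axis) of the 8 receptors tested, for Cdk6-K43M (red) and Cdk6-/- (blue). Filled points are the 4 single samples, bars their mean and SD, and open diamonds the dye-swapped pool. All 5 Cdk6-K43M values of Csf2rb lie below 0, and the Kit samples spread widely in both genotypes.

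The arrays and the targeted gene were checked first. The share of probes well above background was 46.9% to 49.9% in mutant channels and 45.8% to 50% in wild-type channels. Cdk6 rose by 0.36 in Cdk6-K43M (adjusted p = 0.031, limma) and fell by 0.41 in Cdk6-/- (adjusted p = 0.0368, limma). The Cdk6 ratio in Cdk6-/- was between -0.40 and 0.00 in the 4 single samples and -0.67 in the swapped pool. Which part of the transcript the Cdk6 probe reads, and so whether it lies in the deleted part, was not determined here. All 15 B-lineage progenitor markers were above background in every single sample, and their summed level was 506555 to 571207 in Cdk6-K43M, 531469 to 616739 in Cdk6-/- and 440190 to 508322 in the wild-type channels (linear intensity). In bulk RNA fewer cells of a type and less RNA per cell cannot be told apart.

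Flt3, the receptor of FLT3 ligand on early lymphoid and dendritic precursors, fell in Cdk6-/- colonies. The 4 Cdk6-K43M samples stood at -0.48, -0.38, 0.12 and -0.53, and their pool at -0.48. The 4 Cdk6-/- samples stood at -0.81, -0.19, -0.35 and -0.76, and their pool at -0.50. All Cdk6-/- values were below 0, and replicate 3 was the one Cdk6-K43M value above it, so that the genotypes overlapped. The fitted change was -0.37 ± 0.13 in Cdk6-K43M (SE, adjusted p = 0.0641, limma) and -0.54 ± 0.13 in Cdk6-/- (SE, adjusted p = 0.0323, limma). Cdk6-K43M minus Cdk6-/- was 0.21, with a 95% interval of -0.21 to 0.63 (adjusted p = 0.642, limma). The Cdk6-/- call was lost in 6 of 20 alternatives, among them without Cdk6-/- replicate 1 (-0.48, adjusted p = 0.0828) and without replicate 4 (-0.49, adjusted p = 0.0608, limma). With Agilent's processed signals it was -0.97 with a wider error (adjusted p = 0.0712, limma). Without Cdk6-K43M replicate 3 the Cdk6-K43M change of -0.46 passed (adjusted p = 0.018, limma). The probe was well above background in all 8 single samples and all 10 wild-type channels. Its mean log2 level was 7.25 ± 0.22 in Cdk6-K43M, 7.11 ± 0.42 in Cdk6-/- (SD, n = 4 each) and 7.60 ± 0.14 in the wild-type channel (SD, 8 arrays of 1 pool). The mutants do not differ from each other beyond their spread.

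Kit, the stem cell factor receptor, varied more between samples of one genotype than any other receptor here. Cdk6-K43M samples stood at -1.50, -0.48, -0.21 and -0.07, and their pool at -0.39. Cdk6-/- samples stood at 0.09, -1.81, -1.38 and -0.56, and their pool at -0.28. A low sample occurred in each genotype, replicate 1 of Cdk6-K43M and replicate 2 of Cdk6-/-, while Cdk6-/- replicate 1 lay at the level of the wild-type pool. The SD over the 4 samples was 0.65 in Cdk6-K43M and 0.85 in Cdk6-/-. The fitted changes were -0.41 ± 0.30 in Cdk6-K43M (SE, adjusted p = 0.394, limma) and -0.67 ± 0.30 in Cdk6-/- (SE, adjusted p = 0.208, limma). Kit was well above background in 3 of 4 Cdk6-K43M samples, in 2 of 4 Cdk6-/- samples and in all 10 wild-type channels. From the processed signals that Agilent's software gives, the fit was -0.72 in Cdk6-K43M (adjusted p = 0.528) and -1.42 in Cdk6-/- (adjusted p = 0.257, limma). With background-corrected signals and without Cdk6-K43M replicate 1, the Cdk6-K43M change was -0.22. The log2 of the mean linear ratio of the Cdk6-/- samples was -0.73, and the swapped pool of the same RNAs gave -0.28.

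Il7r, the alpha chain shared by the IL-7 and TSLP receptors, rose in Cdk6-K43M colonies. The Cdk6-K43M samples stood at 0.04, 0.44, 1.11 and 0.70, and their pool at 0.69. The Cdk6-/- samples stood at 0.41, 0.31, 0.35 and -0.33, and their pool at 0.20. Every Cdk6-K43M value was above 0, although replicate 1 was barely so, and one Cdk6-/- sample, replicate 4, was below it. The fit gave 0.62 ± 0.16 in Cdk6-K43M (SE, 1.53-fold, adjusted p = 0.0254, limma) and 0.21 ± 0.16 in Cdk6-/- (SE, adjusted p = 0.471, limma). The genotypes overlapped, and their difference of 0.39 had a 95% interval of -0.16 to 0.94 (adjusted p = 0.5, limma). The mean log2 level was 13.14 ± 0.41 in Cdk6-K43M and 12.74 ± 0.33 in Cdk6-/- (SD, n = 4 each), against 12.56 ± 0.04 in the wild-type channel (SD, 8 arrays). Cdk6-/- and wild type do not differ beyond that spread. The Cdk6-K43M call was lost when standard errors were widened for the unknown spread of the pool (adjusted p = 0.159, limma).

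Crlf2, the chain that joins Il7r in the TSLP receptor, moved the other way and fell in Cdk6-K43M. Its brighter probe stood at -0.26, -0.33, -0.72 and -0.40 in the Cdk6-K43M samples and at -0.17 in their pool. In Cdk6-/- it stood at -0.01, -0.09, 0.19 and -0.28, and at -0.01 in the pool. All Cdk6-K43M values were negative and the Cdk6-/- values lay on both sides of 0, with a small overlap between the genotypes. The fitted change was -0.33 ± 0.09 in Cdk6-K43M (SE, 1.26-fold lower, adjusted p = 0.0266, limma) and 0.00 in Cdk6-/- (adjusted p = 0.983, limma). A second, dimmer probe of Crlf2 also fell by 0.33 in Cdk6-K43M (adjusted p = 0.0125 over all kept probes, limma) and stood at -0.04 in Cdk6-/-. Crlf2 was lower in Cdk6-K43M than in Cdk6-/- on each of the 3 slides, by 0.25, 0.32 and 0.63 in size, and the difference of -0.38 (95% interval -0.68 to -0.09) had an adjusted p of 0.251 by limma. With each array centred on its median in place of loess, the Cdk6-K43M change was -0.09 (adjusted p = 0.543, limma), while the median of all genes moved to 0.11.

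Il2rg, the common gamma chain, did not pass the test in either genotype. Cdk6-K43M samples stood between -0.22 and 0.12 and Cdk6-/- samples between -0.35 and 0.22. The fits were 0.02 ± 0.09 in Cdk6-K43M (SE, adjusted p = 0.933, limma) and 0.03 ± 0.09 in Cdk6-/- (SE, adjusted p = 0.89, limma). The 95% intervals were -0.19 to 0.22 in Cdk6-K43M and -0.18 to 0.23 in Cdk6-/-. They take the wild-type pool as without spread, so they can be too narrow to bound a missed change. Over 20 alternatives the Cdk6-K43M change ran from -0.06 to 0.23 and was never called. Between the genotypes the 95% interval was -0.30 to 0.30. The mean log2 level was 12.11 ± 0.19 in Cdk6-K43M, 12.10 ± 0.22 in Cdk6-/- and 12.16 ± 0.07 in the wild-type channel, which do not differ beyond the spread.

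Il3ra, the alpha chain of the IL-3 receptor, rose in Cdk6-/- colonies. The Cdk6-K43M samples stood at 0.03, 0.19, 0.34 and 0.42, and their pool at 0.29. The Cdk6-/- samples stood at 0.81, 0.26, 0.98 and 0.51, and their pool at 0.58. All 10 ratios of the brighter probe were above 0, with the lowest Cdk6-/- sample inside the range of Cdk6-K43M. The fit gave 0.25 ± 0.11 in Cdk6-K43M (SE, adjusted p = 0.135, limma) and 0.63 ± 0.11 in Cdk6-/- (SE, 1.54-fold, adjusted p = 0.012, limma). The second, dimmer Il3ra probe gave -0.01 in Cdk6-K43M and 0.19 in Cdk6-/- (adjusted p = 0.219 over all kept probes, limma), so the probes disagree on the call. Their mean gave 0.41 in Cdk6-/- (adjusted p = 0.0324, limma). Cdk6-K43M minus Cdk6-/- was -0.39 (95% interval -0.76 to -0.03, adjusted p = 0.322, limma), and its sign differed on the slide that held Cdk6-K43M replicate 3 and Cdk6-/- replicate 2 (0.08). With median centring the Cdk6-K43M change of 0.44 passed (adjusted p = 0.0143, limma).

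Csf2ra, the GM-CSF receptor alpha chain, did not pass the test in either genotype. Cdk6-K43M samples stood at -0.40, 0.00, -0.34 and 0.37, and their pool at -0.56. Cdk6-/- samples stood at 0.06, -0.16, 0.20 and -0.02, and their pool at -0.39. Single samples lay on both sides of 0, whereas both pools lay well below it. Singles minus pool was 0.47 in Cdk6-K43M and 0.42 in Cdk6-/-, and the dye term of the fit takes up an offset of this kind. The fitted changes were therefore -0.32 ± 0.11 in Cdk6-K43M (SE, adjusted p = 0.0779, limma) and -0.20 ± 0.11 in Cdk6-/- (SE, adjusted p = 0.32, limma), lower than the means of the single samples, -0.09 in Cdk6-K43M and 0.02 in Cdk6-/-. Without Cdk6-K43M replicate 4 the Cdk6-K43M change was -0.42 and passed (adjusted p = 0.00962, limma).

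Csf2rb, the signalling chain common to the IL-3, GM-CSF and IL-5 receptors, showed the largest change with a call in Cdk6-K43M among the receptors. Its brightest probe stood at -0.78, -0.63, -0.97 and -0.89 in the Cdk6-K43M samples and at -0.58 in their pool. In Cdk6-/- it stood at -0.42, -0.78, -0.10 and -0.76, and at -0.17 in the pool. All 10 values of this probe, the brightest, were below 0 and the genotypes overlapped. The fitted change was -0.68 ± 0.11 in Cdk6-K43M (SE, 1.61-fold lower, adjusted p = 0.00211, limma) and -0.36 ± 0.11 in Cdk6-/- (SE, adjusted p = 0.0726, limma). All 3 probes of Csf2rb fell in Cdk6-K43M, by 0.68, 0.59 and 0.47, each with a call. In Cdk6-/- the 3 probes, in the same order, stood at -0.36, -0.33 and -0.25. Of these, 1 of 3 was called, that at -0.33 (adjusted p = 0.0302 over all kept probes, limma). The Cdk6-K43M call held in all 20 alternatives, between -0.82 and -0.43, the smaller change with median centring. In Cdk6-/- the change passed without replicate 3 (-0.44, adjusted p = 0.0225) and with the 8 single samples alone (-0.51, adjusted p = 0.0183, limma). Cdk6-K43M minus Cdk6-/- was -0.30 (95% interval -0.66 to 0.05, adjusted p = 0.415, limma).

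Mice carry a near-identical copy of this gene, Csf2rb2, a beta chain specific to IL-3. Its probe fell by 0.88 in Cdk6-K43M (adjusted p = 0.00142, limma) and by 0.57 in Cdk6-/- (adjusted p = 0.0289, limma). The Cdk6-K43M samples stood at -0.93, -0.55, -1.32 and -0.91, and the Cdk6-/- samples at -0.55, -0.81, -0.22 and -0.85. As for Csf2rb, the highest Cdk6-/- sample was replicate 3. Because probes of such copies can bind each other's transcript, the split between Csf2rb and Csf2rb2 is uncertain.

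**Figure D2:**
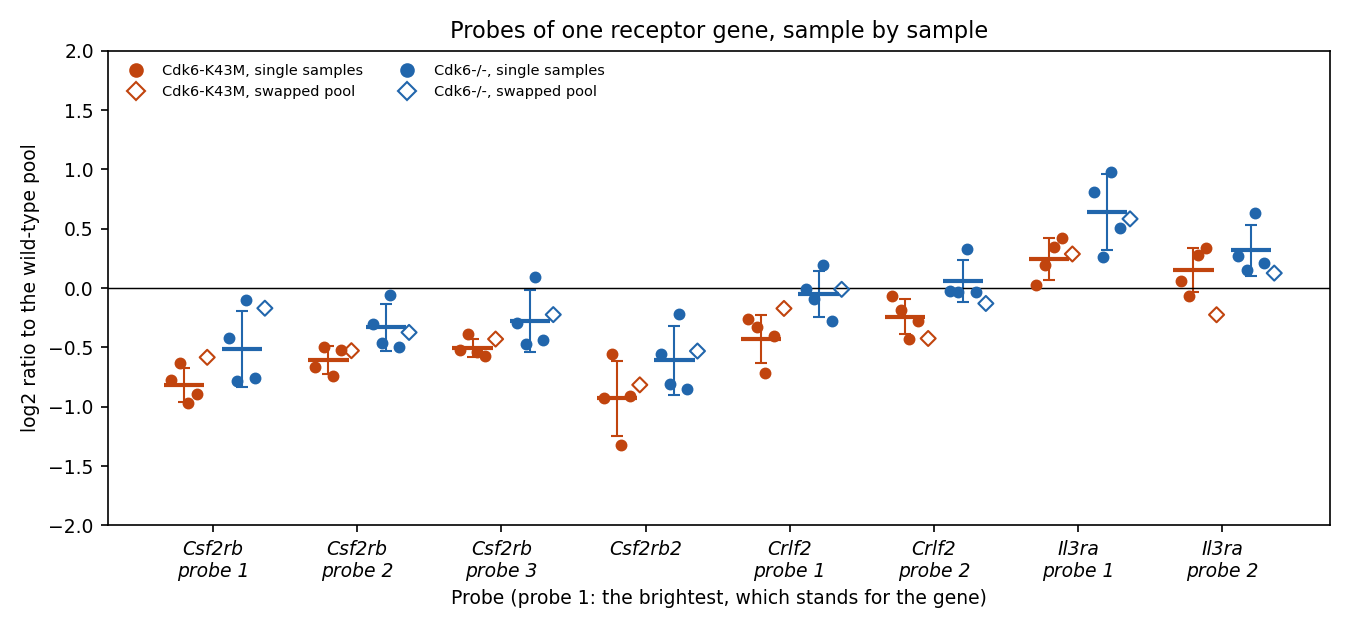
Log2 ratio to the wild-type pool for each kept probe of Csf2rb, Crlf2 and Il3ra, and for the probe of Csf2rb2, in Cdk6-K43M (red) and Cdk6-/- (blue). Points are single samples, bars mean and SD, diamonds swapped pools. The 3 Csf2rb probes lie below 0 in all Cdk6-K43M samples, while probe 2 of Il3ra lies nearer to 0 than probe 1.

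Epor, the erythropoietin receptor of red cell precursors, was not detected. One probe was never well above background, and the other was so in 0 of 4 Cdk6-K43M samples, 1 of 4 Cdk6-/- samples and 1 of 10 wild-type channels. No change can be given for it. Among the erythroid markers, Epb42 and Gata1 were not above background in any single mutant sample or wild-type channel.

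**Figure D3:**
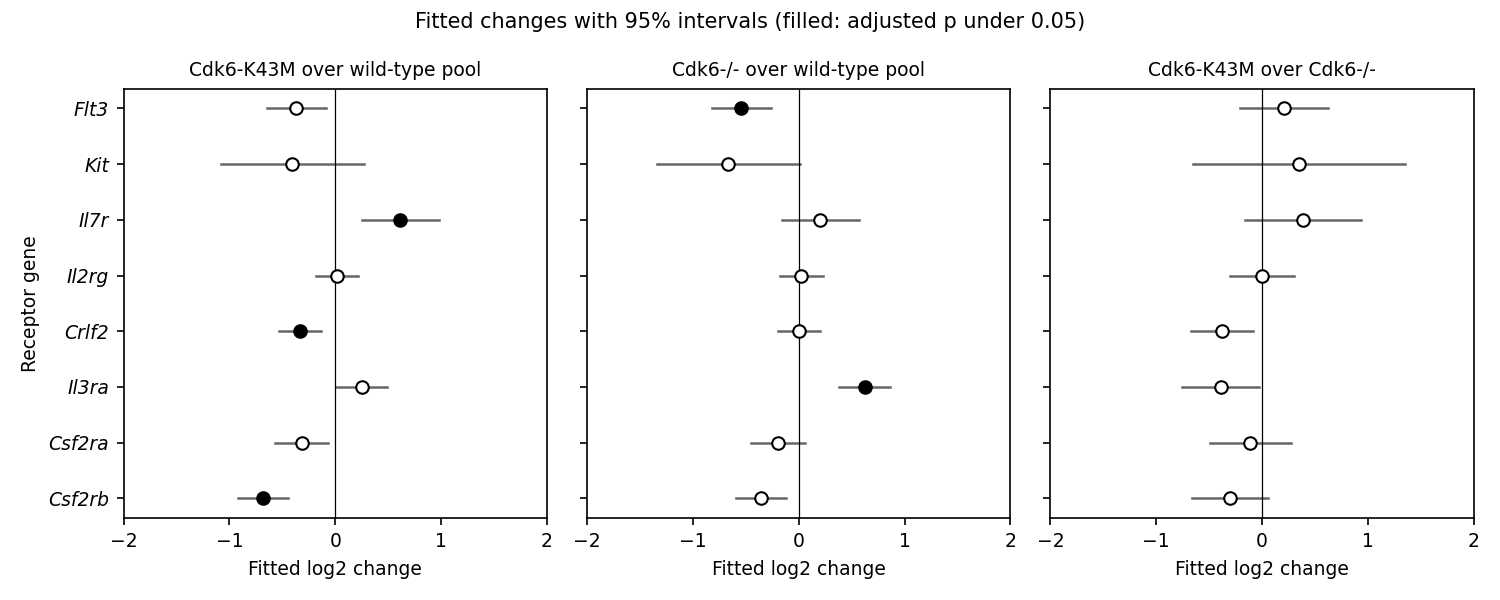
Fitted log2 change with its 95% interval for the 8 receptors in 3 comparisons: Cdk6-K43M over wild-type pool, Cdk6-/- over wild-type pool, and Cdk6-K43M over Cdk6-/-. Filled points passed at an adjusted p under 0.05 (limma). Csf2rb, Crlf2 and Il7r are filled in the first panel, Flt3 and Il3ra in the second and none in the third.

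Between the genotypes 0 of 8 receptors were called by limma, and Crlf2 and Il3ra were the 2 with an unadjusted p under 0.05. For no receptor were the 4 Cdk6-K43M and 4 Cdk6-/- samples fully apart, which held for 8.15% of all genes. Against the pool, 5 of 8 receptors had one sign on all 5 Cdk6-K43M arrays (29.8% of all genes did) and 3 of 8 on all 5 Cdk6-/- arrays (24.4% of all genes). Within the 3 slides, Cdk6-K43M minus Cdk6-/- was -0.36, -0.33 and -0.19 for Csf2rb and 0.33, 0.10 and 0.31 for Flt3, of one sign on each. It was -0.38, 0.57 and 0.80 for Il7r, -0.78, -0.44 and 0.08 for Il3ra and -1.59, 0.70 and 1.60 for Kit, so the sign of these differences changed with the slide. Slides 1 and 3 held 1 single sample of each genotype and slide 2 held 2 of each. Both comparisons with wild type use the same wild-type pool, so like signs in them are not independent. Csf2rb, at -0.68 in Cdk6-K43M and -0.36 in Cdk6-/-, and Il3ra, at 0.25 in Cdk6-K43M and 0.63 in Cdk6-/-, kept one sign on all 10 arrays by their brightest probes. One of the other Csf2rb probes was at 0.10 in Cdk6-/- replicate 3, and the second Il3ra probe at -0.07 in Cdk6-K43M replicate 2 and -0.23 in the Cdk6-K43M pool. Centring each array on its median in place of loess moved the split of calls over all genes: 87.9% of calls in Cdk6-K43M were then higher (48.7% with loess), 63.5% in Cdk6-/- (46.8% with loess) and 65.9% between the genotypes (51.3% with loess).

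The ligands were mostly undetected. Of 13 ligand genes on the array 3 were tested, Il15, Il21 and Flt3l. Il15, which signals through the common gamma chain, fell by 0.75 in Cdk6-K43M (adjusted p = 0.00403, limma). Its Cdk6-K43M samples stood at -1.12, -1.21, -0.68 and -0.28, all below 0, and the Cdk6-/- samples at -0.18, -0.46, -0.19 and -0.09. Its fitted change in Cdk6-/- was -0.17 (adjusted p = 0.466, limma). Flt3l, the ligand of Flt3, was at -0.05 in Cdk6-K43M and 0.07 in Cdk6-/-, neither past the test. Il7, Il3, Tslp, Epo, Il2, Il4, Il5 and Il9 were not well above background in any channel counted, and Kitl and Csf2 in 1 of 10 wild-type channels each.

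Of 20 partner and related receptors, a list that also holds the transferrin receptor Tfrc, 17 were tested. In Cdk6-K43M 4 were higher and 4 lower, and in Cdk6-/- 0 were higher and 4 lower. Their medians, -0.02 in Cdk6-K43M and -0.04 in Cdk6-/-, were close to those of all genes. Of all genes, 9.79% were higher and 10.3% lower in Cdk6-K43M, and 3.38% were higher and 3.85% lower in Cdk6-/-. Il4ra, the alpha chain of the IL-4 receptor that pairs with Il2rg, fell by 0.93 in Cdk6-K43M (adjusted p = 0.000315, limma) and by 0.76 in Cdk6-/- (adjusted p = 0.00277, limma). Its samples lay between -1.16 and -0.73 in Cdk6-K43M and between -1.01 and -0.40 in Cdk6-/-. A second, dimmer Il4ra probe, well above background in 1 of 4 samples of each genotype, lay between -0.21 and 0.04 in Cdk6-K43M.

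Of the chains that pair with Il2rg, Il2ra, Il15ra and Il21r were not called in either genotype. Il2ra stood at -0.57 in Cdk6-K43M and at -1.18 in Cdk6-/- (adjusted p = 0.145, limma), where every array was below 0. Il15ra lay between 0.36 and 0.89 in the single samples but at -0.54 in both swapped pools. Its fits were -0.02 in Cdk6-K43M and 0.13 in Cdk6-/-. Il21r stood at -0.385 in Cdk6-K43M and -0.392 in Cdk6-/-. Il5ra, which pairs with Csf2rb in the IL-5 receptor, fell by 0.84 in Cdk6-K43M (adjusted p = 0.0146, limma) with samples at -0.95, 0.13, -1.09 and -1.47. One sample, replicate 2, was at the wild-type level. Il6ra, the IL-6 receptor alpha chain, fell by 1.43 in Cdk6-K43M (adjusted p = 0.00438, limma) and by 1.71 in Cdk6-/- (adjusted p = 0.00653, limma). Cdk6-K43M samples stood at -1.86, -1.45, -1.97 and -0.04, so replicate 4 was near the wild-type level, and Cdk6-/- samples lay between -1.83 and -1.36. Its partner Il6st, the signal chain gp130, rose by 0.70 in Cdk6-K43M (adjusted p = 0.00983, limma), and so did the interferon receptor chains Ifngr1 by 0.84 (adjusted p = 0.00165, limma) and Ifnar2 by 0.45 (adjusted p = 0.00142, limma). Il10rb was the fourth that rose in Cdk6-K43M, by 0.24, and Il10ra the fourth that fell in Cdk6-/-, by 0.39.

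**Figure D4:**
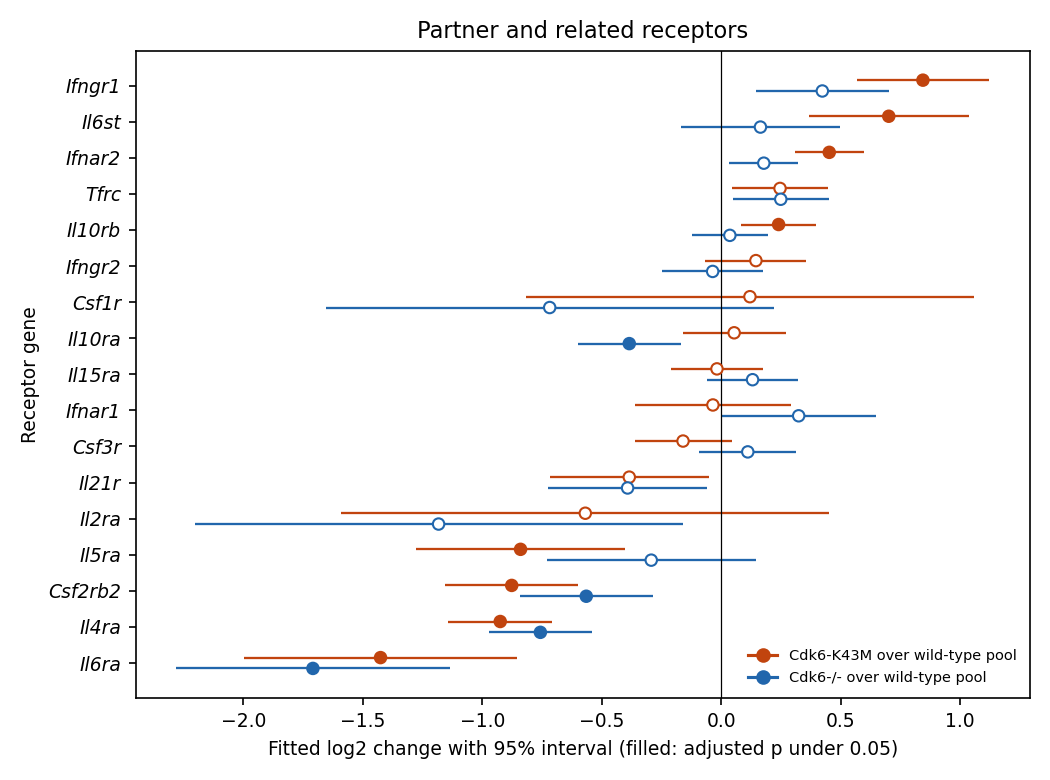
Fitted log2 change with 95% interval of the 17 partner and related receptors tested, Cdk6-K43M over wild-type pool (red) and Cdk6-/- over wild-type pool (blue). Filled points passed at an adjusted p under 0.05 (limma). Il6ra, Il4ra and Csf2rb2 are filled and below 0 in both genotypes, and Ifngr1, Il6st, Ifnar2 and Il10rb are filled and above 0 in Cdk6-K43M and open in Cdk6-/-.

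Downstream, all 11 JAK and STAT genes were tested, and Stat2 (fell by 0.61, adjusted p = 0.027, limma) and Stat3 (fell by 0.23, adjusted p = 0.0445, limma) were lower in Cdk6-K43M. None was called in Cdk6-/- by limma. Stat5a samples lay between -0.21 and 0.20 in Cdk6-K43M, and its fitted change in Cdk6-/- was -0.09. Of 19 receptor adaptors and feedback genes, 2 were higher and 7 lower in Cdk6-K43M, and 0 were higher and 4 lower in Cdk6-/-. Their medians were -0.16 in Cdk6-K43M and -0.08 in Cdk6-/-. The shares over all genes were 9.79% higher and 10.3% lower in Cdk6-K43M, and 3.38% higher and 3.85% lower in Cdk6-/-. Socs2 and Cish, feedback inhibitors that STAT5 induces, fell in both genotypes. Socs2 fell by 0.90 in Cdk6-K43M (adjusted p = 0.000163, limma) and by 0.39 in Cdk6-/- (adjusted p = 0.0265, limma). Cish fell by 0.39 in Cdk6-K43M (adjusted p = 0.0104, limma) and by 0.37 in Cdk6-/- (adjusted p = 0.0324, limma).

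The Src family kinase Lyn fell by 0.98 in Cdk6-K43M (adjusted p = 0.000936, limma) and by 0.58 in Cdk6-/- (adjusted p = 0.0288, limma). Ptpn6, the phosphatase SHP-1 that dampens receptor signals, fell by 0.39 in Cdk6-K43M (adjusted p = 0.00284, limma) and by 0.63 in Cdk6-/- (adjusted p = 0.000772, limma). All samples of both genotypes were below 0 for Lyn and for Ptpn6. Gab2, a docking protein of KIT and BCR-ABL, rose by 0.56 in Cdk6-K43M (adjusted p = 0.00682, limma) and stood at 0.40 in Cdk6-/- (adjusted p = 0.0564, limma).

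Of 17 transcription factors known to act on receptor genes, 13 were tested. In Cdk6-K43M 1 was higher and 2 lower, against 1 higher and 0 lower in Cdk6-/-. The shares over all genes were 9.79% higher and 10.3% lower in Cdk6-K43M, and 3.38% higher and 3.85% lower in Cdk6-/-. Ebf1, a B-lineage factor, rose by 0.40 in Cdk6-K43M (adjusted p = 0.00384, limma), and Ikzf1, the lymphoid factor Ikaros, fell by 0.30 (adjusted p = 0.0122, limma). In Cdk6-/- Ebf1 stood at 0.21 and Ikzf1 at -0.19, neither called. Lmo2, a bridging factor of early progenitors, fell by 0.90 in Cdk6-K43M (adjusted p = 0.0494, limma), where replicate 4 stood at 0.20 and the other 3 between -1.43 and -1.27. Its change in Cdk6-/- was -0.83 (adjusted p = 0.106, limma). Gfi1b, a transcriptional repressor found in erythroid and megakaryocytic cells, rose by 1.06 in Cdk6-/- (adjusted p = 0.0269, limma). It stood at 0.685 in Cdk6-K43M (adjusted p = 0.0619, limma). Spi1, which encodes PU.1, was between -0.40 and 0.43 in Cdk6-K43M samples and was not called.

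Of the lists for other cell types, the myeloid markers had calls in both genotypes and the stem and progenitor markers in Cdk6-K43M. Of 14 myeloid markers tested, 6 were lower and 0 higher in each genotype, with medians of -0.24 in Cdk6-K43M and -0.49 in Cdk6-/-. Over all genes 10.3% were lower in Cdk6-K43M and 3.85% in Cdk6-/-. The 8 not called in Cdk6-K43M lay on both sides of 0. Cd14 stood at 0.40, Lyz2 at 0.38, Cd68 at 0.10, Itgam at 0.06 and Fcgr3 at 0.00. Elane stood at -0.11, Adgre1 at -0.14 and Cybb at -0.41. Cdk6-K43M replicate 4 stood at 2.24 for Lyz2, 1.99 for Cd14, 1.76 for Cd68 and 2.07 for Adgre1. The other single Cdk6-K43M samples were at or below 0 for these genes. S100a9, a neutrophil and monocyte protein, fell in both, with a change of -3.94 in Cdk6-K43M (adjusted p = 3e-07, limma) and of -4.16 in Cdk6-/- (adjusted p = 2.39e-07, limma). Camp, Mpo and Ngp, which were lower in both, were not well above background in any single mutant sample. S100a8, also lower in both, was so in 1 of 4 Cdk6-K43M samples and 0 of 4 Cdk6-/- samples. Camp, Mpo, Ngp and S100a8 were kept through the wild-type channels alone, so their calls as lower are no separate evidence. Ltf and Prtn3 were not above background in any single mutant sample or wild-type channel. The summed level of the 16 myeloid markers was 6117 to 17033 in Cdk6-K43M, 6361 to 7512 in Cdk6-/- and 9465 to 10626 in the wild-type channels (linear intensity). Its highest value was that of Cdk6-K43M replicate 4, and the next Cdk6-K43M sample had 8958. Csf2rb, Csf2ra, Il3ra and Il6ra are expressed by myeloid cells, and the part of these cells in their values was not tested. Cdk6-K43M replicate 4, whose myeloid sum was the highest, had ratios of -0.89 for Csf2rb, 0.37 for Csf2ra, 0.42 for Il3ra and -0.04 for Il6ra. It was the highest single Cdk6-K43M sample for Csf2ra, Il3ra and Il6ra, but not for Csf2rb.

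Mast cell and basophil markers, whose cells carry Kit and Il3ra, were absent for the most part. Cma1, Cpa3, Fcer1a, Mcpt8, Ms4a2 and Prss34 were not above background in any single mutant sample or wild-type channel. None of the other 2 of 8 was called in either genotype by limma. Of 15 B-lineage markers, 4 were higher and 3 lower in Cdk6-K43M, and 2 higher and 0 lower in Cdk6-/-. The shares over all genes were 9.79% higher and 10.3% lower in Cdk6-K43M, and 3.38% higher and 3.85% lower in Cdk6-/-. Rag2, a recombinase of B-cell progenitors, rose by 1.14 in Cdk6-K43M (adjusted p = 0.00317, limma) and stood at 0.725 in Cdk6-/- (adjusted p = 0.0505, limma). Cd79b, part of the B-cell receptor, fell by 0.51 in Cdk6-K43M (adjusted p = 0.000957, limma) and stood at -0.17 in Cdk6-/- (adjusted p = 0.153, limma). The summed level of 8 stem and progenitor markers was 11292 to 32122 in Cdk6-K43M, 9166 to 17163 in Cdk6-/- and 9206 to 9932 in wild type. Of these, Cd34 and Hlf were not above background in any single mutant sample or wild-type channel. The highest Cdk6-K43M value was again that of replicate 4, and the next was 17216. Of the 4 tested, Ly6a rose by 1.60 (adjusted p = 0.0318, limma) and Procr by 0.40 (adjusted p = 0.0429, limma) in Cdk6-K43M. The Cdk6-K43M samples of Ly6a spread widely, at 0.14, 2.00, 0.45 and 3.24. Cd48, at 0.23 in Cdk6-K43M, and Gfi1, at 0.04, were not called in either genotype. In Cdk6-/- Ly6a stood at 0.89 and Procr at -0.25, neither called. Of the dendritic cell markers, 5 were tested and 0 called in either genotype by limma, of the T and NK cell markers 4 and 0, and of the erythroid markers 5 and 0.

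The genes whose ratios over the 8 single samples were most like each receptor's were read out by Pearson's r, as a description. The 8 arrays share the wild-type pool and 3 slides, and the best of all genes with a symbol is high by selection. For Csf2rb these were Fchsd1 (r = 0.988) and Ccpg1 (r = 0.986), for Il3ra Tanc2 (r = 0.975) and Id3 (r = 0.97), and for Crlf2 Rnase6 (r = 0.976) and Tbc1d22a (r = 0.967). For Il7r they were Stk26 (r = 0.954) and Zswim1 (r = 0.947), and for Flt3 Cenpj (r = 0.955) and Fchsd2 (r = 0.95). Csf2ra was most like A430088P11Rik (r = 0.971) and Dpp7 (r = 0.964), and Il2rg most like Vps54 (r = 0.968) and Ripk3 (r = 0.952). Kit had the lowest of these values, with Reep6 (r = 0.918) and Abcf1 (r = 0.905).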

How the data were processed

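Per the file headers, Agilent Feature Extraction 11.5.1.1 read the intensity of each spot and its local background, and also wrote processed intensity values and a log10 ratio. A further file that the authors deposited holds log2 values and is named as loess normalized. Depth has no counterpart on arrays, whose number limits the precision.

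Median signals were corrected by normexp (offset 50) and loess within arrays in limma 3.58.1 (R 4.3.3, with data.table, version 1.17.8), without control spots, and non-uniform spots were set to missing. Probes well above background on 3 of 4 single arrays of a genotype, or in 5 of 10 wild-type channels, were kept (28182). The brightest kept probe stood for a gene. Symbols came from RefSeq through transcript accessions (58.3% of probes). Levels per channel were also quantile-scaled (Aquantile).

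Comparisons with wild type used all 10 arrays, with a coefficient per genotype and a dye term, in limma (7 residual and 2.94 prior degrees of freedom). Swapped pools repeat RNA of the same samples, which can make the spread too small. Genotypes were compared on the 8 single arrays (6 residual and 2.86 prior degrees of freedom). The fits were also run on simulated data. There all 10 arrays were drawn as independent and the pool had no spread, so this cannot show whether the p-values hold for these arrays.

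Members and lists were chosen with earlier results of these data known. The text names the members, Cdk6, up to 4 list genes with the smallest p per comparison and the 2 genes most like each member. Stat5a, Spi1, Cish in Cdk6-K43M, Il5ra, Il6ra in Cdk6-K43M, Il6st, Il10rb, Il2ra, Il15ra and Il21r were added after their values were seen. So were the myeloid markers not called in Cdk6-K43M.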

Additional observations from a re-analysis of the deposited data

Results flagged for a closer look

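Of 24 groups of 4 single samples (12 kept receptor probes in 2 genotypes), 2 held a sample far from the other 3, and about 1 in 20 would by chance. Il7r stood at -0.33 in Cdk6-/- replicate 4, where the other 3 Cdk6-/- samples stood between 0.31 and 0.41. The dimmer Crlf2 probe stood at 0.33 in Cdk6-/- replicate 3, where the other 3 stood between -0.04 and -0.03, and the brighter Crlf2 probe had its highest Cdk6-/- value, 0.19, in the same sample.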

How the results depend on the processing

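No called receptor reversed its direction under any alternative run. In Cdk6-K43M, 3 receptors called became 1 (Csf2rb) when standard errors were widened for the unknown spread of the wild-type pool. The count there was 2 with Agilent's processed signals and 3 to 4 when 1 replicate was left out. With median centring it stayed at 3, but Crlf2 was lost and Il3ra gained. In Cdk6-/-, 2 became 1 with Agilent's processed signals, 1 with median centring, 1 with slide as a block, 0 with the widened errors and 1 to 3 when 1 replicate was left out. Between the genotypes the count was 0 under every setting, from 0 to 0 with 1 replicate left out and 0 with the replicate block, where adjusted p ran from 0.295 to 0.998. The numbers are not known to pair samples: deviations of same-numbered samples correlated at -0.066 to 0.228, and not every sample correlated best with its own number. The cause of these changes was not tested, apart from the widened errors, which raise p by construction. Widened errors gave an adjusted p of 0.163 for Crlf2 and 0.159 for Il7r in Cdk6-K43M, and of 0.14 for Il3ra and 0.25 for Flt3 in Cdk6-/-. Flt3 in Cdk6-/- was -0.97 with Agilent's processed signals (adjusted p = 0.0712, limma), -0.51 with median centring (adjusted p = 0.0793) and -0.45 with the slide block (adjusted p = 0.0697), against -0.54. Crlf2 in Cdk6-K43M was -0.29 with Agilent's signals (adjusted p = 0.123, limma), against -0.33.

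Over all genes, counts moved by over 1.5 times in some settings. In Cdk6-K43M, 4428 became 1271 with widened errors. In Cdk6-/-, 1593 became 802 with median centring, 638 with slide as a block, 3292 with the 8 single arrays, 130 with widened errors and 612 to 1931 with 1 replicate left out. Between the genotypes, 113 became 73 with Agilent's signals, 33 with slide as a block, 559 with all 10 arrays, 37 with the replicate block and 36 to 77 with 1 replicate left out. Signal over background limits Epor, and Kit in the mutant samples.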
